A study of Mus musculus with 4 samples.

Results

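The interferon-stimulated genes examined here are 46 mouse genes that cells switch on when they sense interferon. They were taken as a named list and read on Affymetrix mouse expression arrays from the probe sets annotated with a single symbol of the list. Where a gene had several such probe sets, the one with the highest mean over the 4 arrays stood for it. Of the 46 genes, 44 had such a probe set, out of 18193 genes on the array, and 43 were bright enough to be tested, out of 13139 genes tested. The only Isg15 probe set also carries another gene's symbol and Ifi44 has no probe set of its own in the annotation, so neither is reported. Mx2 was measured but was too dim to test, with signals of 9.30 and 14.7 in the G-MDSC arrays and 22.4 and 37.5 in the neutrophil arrays.

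The arrays compare granulocytic myeloid-derived suppressor cells (G-MDSC) with neutrophils, 2 samples of each, all from female C57BL/6 mice. G-MDSC are immature granulocytes that build up in tumour-bearing hosts and hold back T cells. They were sorted with Ly6G microbeads from the spleens of mice given EL4 lymphoma cells under the skin 3.5 weeks before, and the design text describes them as CD11b+Ly6G+Ly6Clow. Neutrophils were washed out of the peritoneum of mice without a stated tumour, after 2 intraperitoneal injections of casein (1.5 ml at 12%) 16 h apart. These cells were collected 3 h after the last injection, depleted of F4/80-positive cells and sorted with the same Ly6G beads. Both kinds of sample had red cells lysed, and 100 ng of total RNA was labelled. Cell kind therefore cannot be told apart from tissue, tumour, casein or sorting steps. Whether replicates 1 and 2 came from separate mice or from pools is not given, so each p-value rests on the scatter among these samples alone, and that scatter may be technical. In sorted bulk samples, fewer cells that express a gene and less RNA per cell cannot be told apart.

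Interferons are secreted proteins that warn cells of infection. Type I interferons bind a receptor made of Ifnar1 and Ifnar2, and the attached kinases Jak1 and Tyk2 activate Stat2. With Irf9 it enters a complex that binds a DNA motif named the interferon-stimulated response element (ISRE). Interferon gamma signals through Ifngr1 and Ifngr2, and its targets often carry a second motif, the gamma-activated site (GAS). The target genes block viral entry, copying and translation, sense foreign nucleic acid, present antigen, call in T cells and tune the response itself. In neutrophils and tumour-associated myeloid cells the same genes are often read as a measure of recent interferon exposure.

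The ISRE core was searched for because it is the shared motif of these genes. Promoters from 250 bases before to 50 after the transcription start were taken from RefSeq (GRCm38.p6), and 34 of the 46 genes were matched. The core was written GAAANNGAAA, with TTTCNNTTTC as its other strand. It was found in 15 of the 34 promoters (44.1%), against 3.99% of the 27025 genes of the promoter table. The GAS letters TTCNNNGAA, which read the same on both strands, were found in 9 of the 34 (26.5%), against 9.55% of all. The windows below come from genes that the results turn on. Each is written 5′ to 3′ on the gene's strand, with the ISRE letters in capitals and 12 flanking bases on each side. Ifit1 and Ifit3 swung widely between replicate arrays, Rsad2 and Gbp2 did so at high signals, and Cxcl10 and Bst2 differed between the groups.
Ifit1, chr19:34640773-34640825, plus strand: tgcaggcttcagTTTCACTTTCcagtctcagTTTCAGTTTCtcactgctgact
Ifit3, chr19:34583361-34583394, plus strand: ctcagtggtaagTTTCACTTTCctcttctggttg
Ifit3, chr19:34583395-34583428, plus strand: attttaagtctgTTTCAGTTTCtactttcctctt
Rsad2, chr12:26456551-26456584, minus strand: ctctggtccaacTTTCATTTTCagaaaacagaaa
Gbp2, chr3:142620592-142620625, plus strand: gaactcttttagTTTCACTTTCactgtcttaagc
Cxcl10, chr5:92349081-92349114, minus strand: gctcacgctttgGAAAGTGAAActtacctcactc
Bst2, chr8:71537575-71537614, minus strand: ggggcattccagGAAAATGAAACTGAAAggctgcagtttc
In the Ifit1 window the matches start 104 and 85 bases before the transcription start, and in the Ifit3 windows 156 and 122 bases before it. The Cxcl10 match lies 213 bases and the Gbp2 match 59 bases before the start. The Bst2 window holds 2 overlapping ISRE matches and overlaps a GAS match. These are matches of letters and do not show that a factor binds there.

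Signals are MAS5 intensities on a linear scale, and every difference below is on the log2(signal + 16) scale, which understates changes of dim genes. The 4 arrays had already been scaled to the same trimmed mean. Neutrophils replicate 2 differed in its dim signals, with a median of 177.9 against 75.84 to 83.31 in the other arrays, so dim genes read higher there. Of the 10 neutrophil markers tested, 3 were higher in G-MDSC and 0 lower, against 8.3% and 8.05% of all genes. S100a8 lay between 53178 and 85891 over the 4 arrays and Csf3r, the G-CSF receptor, between 14881 and 27611. Camp, a granule protein of immature granulocytes, had 30456 and 30836 in G-MDSC against 1277 and 600, a 34.3-fold difference (limma adjusted p = 1.31e-05). Macrophage markers were higher in the neutrophil samples. Of 16 tested, 11 were lower in G-MDSC, and their summed signal was 19125 and 18856 in the G-MDSC arrays and 47582 and 71001 in the neutrophil arrays. Adgre1, the gene of the macrophage antigen used in the depletion, had 817 and 643 against 4847 and 7136. It was above the 40th percentile of the signals in all 4 arrays. Monocyte markers, of which 5 of 8 tested were lower in G-MDSC, summed to 20982 and 26011 against 57144 and 63205. The sum for conventional dendritic cells was 23439 and 24575 against 54179 and 73471 (5 of 10 lower), and for mast cells 2830 and 3653 against 16130 and 6324 (5 of 7 lower). Markers of plasmacytoid dendritic cells, known as strong interferon producers, summed to 3435 and 3497 against 3872 and 4000 (1 of 9 lower), with Siglech at 51.1 to 109. The part of these cells in the results below was not tested.

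The replicate arrays of each group disagreed on the interferon-stimulated genes. In 38 of the 43 genes tested (88.4%), G-MDSC replicate 2 was above G-MDSC replicate 1 while neutrophils replicate 2 was below neutrophils replicate 1. Of all genes tested, 15.3% had that pattern. The pattern with both signs turned, held by 26.5% of all genes, was seen in 1 of the 43 (Mx1). The other exceptions were Cxcl10, Cxcl11 and Lgals3bp, which were higher in replicate 2 of both groups, and Trim25. Trim25 was lower in neutrophils replicate 2 and nearly equal between the G-MDSC arrays (-0.02). Of its 3 probe sets, 2 had the pattern, but not the chosen one. G-MDSC replicate 2 exceeded replicate 1 by a median of 1.06 (2.08-fold) over the 43 genes, against 0.02 over all genes. Neutrophils replicate 2 minus replicate 1 had a median of -0.85 (1.80-fold lower), against 0.26 over all genes.

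**Figure D1:**
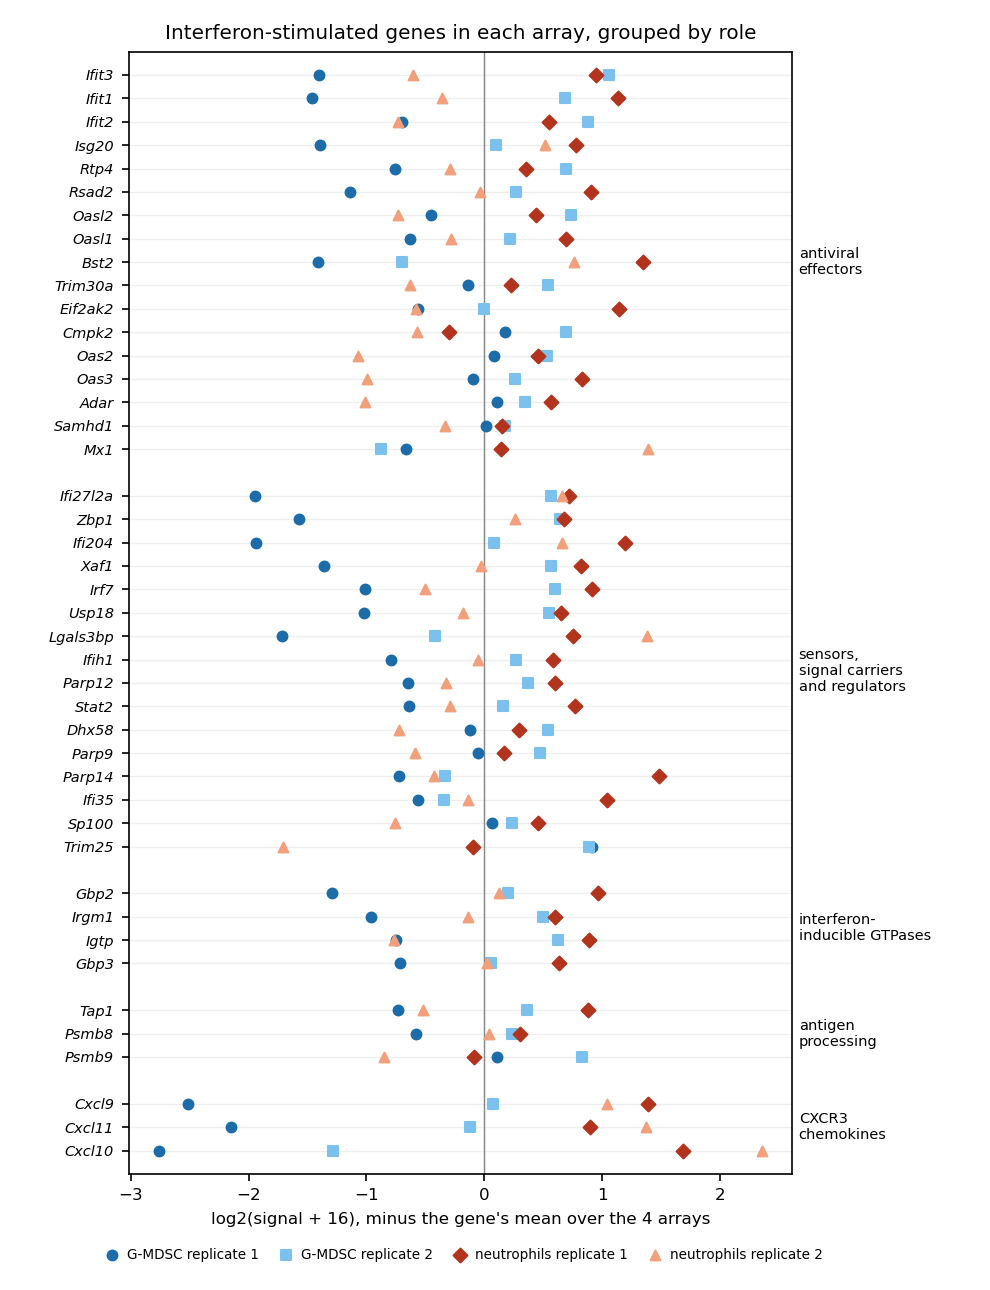
Each row is an interferon-stimulated gene and each symbol an array: log2(signal + 16) on the horizontal axis, minus the gene's own mean over the 4 arrays, with genes grouped by role. G-MDSC replicate 1 is the lowest array in 27 of the 43 genes and neutrophils replicate 1 the highest in 27, so symbols of 1 colour family lie apart in most rows.

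The median gene, centred on its own mean, stood at -0.73 in G-MDSC replicate 1, 0.34 in G-MDSC replicate 2, 0.69 in neutrophils replicate 1 and -0.29 in neutrophils replicate 2. For all genes the same medians were -0.08, -0.03, -0.09 and 0.25. G-MDSC replicate 1 was the lowest array for 27 of the 43 genes (62.8%), against 26.4% of all genes. Neutrophils replicate 1 was the highest for 27 (62.8%), against 14.6% of all genes. The full order from high to low was neutrophils 1, G-MDSC 2, neutrophils 2, G-MDSC 1 in 16 genes (37.2%), against 0.982% of all genes. Neighbours in this order came from different groups, so the groups overlapped in these 16 genes, with the neutrophil mean the higher.

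The swings were large in many genes. G-MDSC replicate 2 was at least 2-fold above replicate 1 in 23 of the 43 (53.5%), against 5.03% of all genes. Neutrophils replicate 2 was at least 2-fold below replicate 1 in 17 (39.5%), against 5.77% of all genes. Both held for 7 interferon-stimulated genes (Ifit1, Ifit2, Ifit3, Oasl2, Irf7, Igtp and Tap1), and for 26 genes on the whole array (0.198%). Of the 19 others, 4 (Gbp7, Ifi47, Slfn5 and Slfn8) belong to a longer list of interferon-induced genes and 15 to neither list. Of these 15, 12 were in the dimmest 40% of at least 1 array, and the 3 that were not were Ly6i, Nlrc5 and Prnp, named after their values were seen. Nlrc5 is also on the list of brakes on interferon signalling given below.

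**Figure D2:**
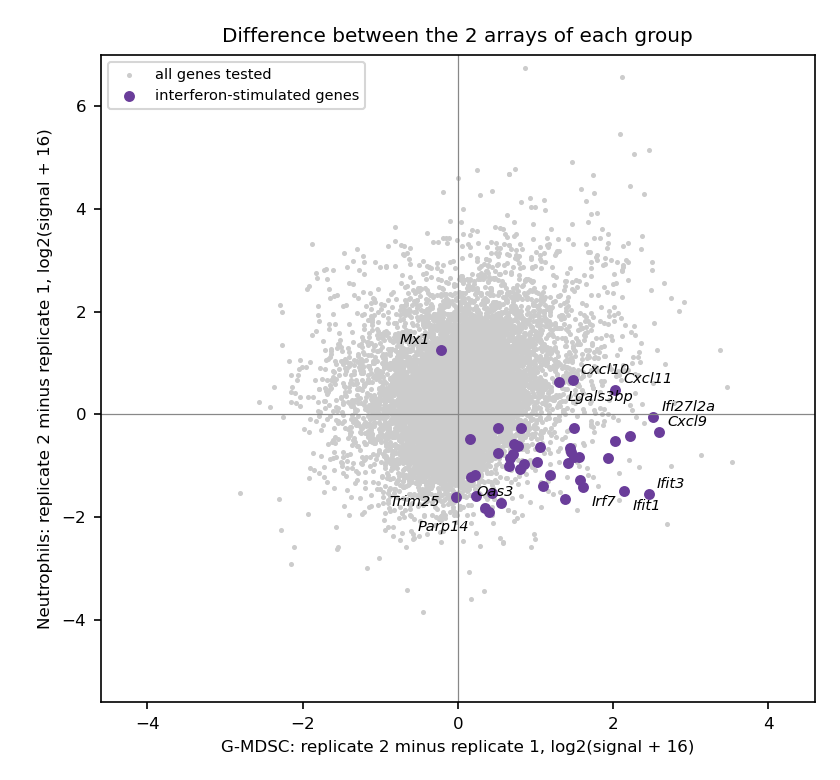
For each gene tested, the horizontal axis gives G-MDSC replicate 2 minus replicate 1 and the vertical axis neutrophils replicate 2 minus replicate 1, both in log2(signal + 16). Grey points are all 13139 genes and purple points the 43 interferon-stimulated genes, 38 of which lie in the lower right quadrant.

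The pattern was less frequent in probe sets not chosen for brightness. Of the 20 genes with several probe sets, 18 showed it in the chosen one, and 18 of the other 31 probe sets did, dim ones included. The chosen probe set was the only one with it in Tap1 (1 of 4), Adar (1 of 3), Sp100 (1 of 2) and Cxcl9 (1 of 2). In Samhd1, 2 of 5 had it. It was present in 38 of 43 genes after quantile normalization, when 23.7% of all genes had it, and in 41 after scaling the arrays to equal medians, when 32.1% did. It was seen with and without an ISRE core in the promoter window, in 13 of 14 tested genes of the list with the core and 16 of 18 without it. Among genes outside the list that hold the core, 17.9% of 391 did. Among the marker sums given above, that of mast cells had the pattern: higher in replicate 2 of G-MDSC and lower in replicate 2 of neutrophils. The median mast cell marker differed by -1.35 between neutrophils replicates 2 and 1, and by -0.40 between those of G-MDSC. The sums for macrophages, monocytes and conventional dendritic cells were higher in neutrophils replicate 2 than in replicate 1. The part of these cells in the pattern was not tested.

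Antiviral effectors act on the virus or on processes of the cell that it needs. Of 20 listed, 17 were tested, 16 showed the pattern and 1 (Bst2) was called between the groups. Of all genes, 15.3% showed the pattern and 16.4% were called. The Ifit proteins bind viral RNA and block its translation. Ifit1 had signals of 1145 and 5118 in G-MDSC replicates 1 and 2 and 7001 and 2484 in neutrophils replicates 1 and 2. Ifit3 had 485 and 2737 in the G-MDSC arrays and 2529 and 850 in the neutrophil arrays. Ifit2 had 420 and 1287 in the G-MDSC arrays and 1025 and 412 in the neutrophil arrays. In all 3 genes G-MDSC replicate 1 and neutrophils replicate 2 were the low arrays and the groups overlapped. Between the Ifit3 arrays the fold was 5.50 in G-MDSC and 2.94 in neutrophils. Rsad2 (viperin), which makes a nucleotide that ends viral RNA chains, had 4089 and 10919 in the G-MDSC arrays and 16910 and 8808 in the neutrophil arrays. Of its 3 probe sets, all 3 showed the pattern. Isg20, an exonuclease that degrades RNA, had 1108 and 3152 against 5059 and 4203, and its groups did not overlap, as in 59.5% of all genes.

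Some members of the oligoadenylate synthetase family make a messenger that activates RNase L. Oasl2 had 5441 and 12384 in the G-MDSC arrays and 10106 and 4469 in the neutrophil arrays. Oasl1 had 665 and 1215 in the G-MDSC arrays and 1693 and 855 in the neutrophil arrays. In these genes as well, replicate 2 was the high array of G-MDSC and the low array of neutrophils. Oas2 (3017 and 4115 against 3911 and 1349) and Oas3 (3273 and 4186 against 6232 and 1741) moved less in G-MDSC than in neutrophils. Eif2ak2, the kinase PKR that halts translation on double-stranded RNA, had 441 and 655 in the G-MDSC arrays and 1473 and 436 in the neutrophil arrays. Its probe sets gave differences from -0.57 to 0.76, so they disagreed on the direction. Adar, which edits adenosines in double-stranded RNA, had 2297 and 2713 in the G-MDSC arrays and 3172 and 1048 in the neutrophil arrays. In both genes the neutrophil arrays were farther apart (3.30-fold and 3.00-fold) than the G-MDSC arrays.

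Rtp4, a receptor-transporting protein with antiviral activity, had 6893 and 18846 in the G-MDSC arrays and 14944 and 9527 in the neutrophil arrays. Trim30a, a tripartite-motif protein, had 8689 and 13884 in the G-MDSC arrays and 11199 and 6171 in the neutrophil arrays. Samhd1, which breaks down the nucleotides that viruses need to copy DNA, was the steadiest at 11582 and 12926 against 12691 and 9076. Cmpk2, a mitochondrial nucleotide kinase, had 1202 and 1728 against 858 and 710, so the G-MDSC arrays were the higher pair. Mx1, a gene of the Mx GTPase family, was the exception to the pattern, with 38.2 and 30.7 in the G-MDSC arrays and 78.5 and 209 in the neutrophil arrays. Both G-MDSC values lie in the dimmest 40% of their arrays, so its fold is a bound: the G-MDSC level was at least 2.24-fold lower, with limma adjusted p = 0.229. No bound remains against the higher floor of neutrophils replicate 2, and without neutrophils replicate 1 or 2 it is 3.46 or 1.45.

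Sensors, signal carriers and regulators were 16 genes, all tested, of which 14 showed the pattern. Irf7, the transcription factor that amplifies type I interferon, had 1612 and 4954 in the G-MDSC arrays and 6186 and 2297 in the neutrophil arrays. Stat2, a subunit of the ISRE-binding complex, had 203 and 364 in the G-MDSC arrays and 563 and 262 in the neutrophil arrays. Usp18, which strips Isg15 from proteins and damps the receptor, had 381 and 1160 in the G-MDSC arrays and 1250 and 697 in the neutrophil arrays. All 3 ran in the order neutrophils 1, G-MDSC 2, neutrophils 2, G-MDSC 1. The RNA sensor Ifih1 (MDA5) ran in that order too, with 1100 and 2307 against 2880 and 1842. Its relative Dhx58 (LGP2) was highest in G-MDSC replicate 2, with 547 and 875 against 732 and 355. Zbp1, which senses Z-form nucleic acid and can trigger cell death, had 652 and 3090 in the G-MDSC arrays and 3158 and 2361 in the neutrophil arrays. Its G-MDSC arrays were 4.65-fold apart.

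Xaf1, an antagonist of the apoptosis inhibitor XIAP, had 677 and 2622 in the G-MDSC arrays and 3121 and 1727 in the neutrophil arrays. Ifi27l2a, a small membrane protein, had 1953 and 11254 in the G-MDSC arrays and 12484 and 11997 in the neutrophil arrays. Here 3 arrays were alike and G-MDSC replicate 1 alone was low. The ADP-ribosyltransferase family members Parp9, Parp12 and Parp14 and the nuclear-body protein Sp100 had signals between 761 and 3574 and showed the pattern. Parp14 had 761 and 1007 against 3574 and 940, so neutrophils replicate 1 alone was high. Ifi35 had 3754 and 4364 in the G-MDSC arrays and 11440 and 5040 in the neutrophil arrays. Its groups did not overlap, as in 59.5% of all genes.

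The interferon-inducible GTPases attack the vacuoles in which microbes live, and all 4 showed the pattern. Gbp2 had 3134 and 8848 in the G-MDSC arrays and 15000 and 8408 in the neutrophil arrays. Igtp had 2503 and 6518 in the G-MDSC arrays and 7802 and 2475 in the neutrophil arrays. Irgm1 had 812 and 2252 against 2418 and 1450, and Gbp3 539 and 934 against 1400 and 909. In none of the 4 did the groups separate, against 59.5% of all genes that did. Of the 4, 0 were called (limma, Benjamini-Hochberg, with 1 of 4 at an unadjusted p under 0.05), against 16.4% of all genes.

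The antigen-processing genes supply peptides to MHC class I. Tap1, a subunit of the peptide transporter, had 1418 and 3049 in the G-MDSC arrays and 4369 and 1645 in the neutrophil arrays. Psmb8, a subunit of the immunoproteasome, had 2223 and 3919 in the G-MDSC arrays and 4108 and 3431 in the neutrophil arrays. Psmb9, another subunit, had 3688 and 6069 in the G-MDSC arrays and 3217 and 1884 in the neutrophil arrays. The 3 genes shared the pattern in their chosen probe sets, though only 1 of the 4 Tap1 probe sets had it. Only for Psmb9 were both G-MDSC arrays above both neutrophil arrays. None of the 3 was called (limma, Benjamini-Hochberg, with 1 of 3 at an unadjusted p under 0.05), against 16.4% of all genes.

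The chemokines Cxcl9, Cxcl10 and Cxcl11 draw T cells through the receptor CXCR3. Cxcl10 had 129 and 389 in the G-MDSC arrays and 3145 and 5014 in the neutrophil arrays. Cxcl9 had 5.94 and 116 in the G-MDSC arrays and 312 and 242 in the neutrophil arrays. Cxcl11 had 13.2 and 103 in the G-MDSC arrays and 225 and 320 in the neutrophil arrays. All 3 separated the groups, as 59.5% of all genes did in either direction. G-MDSC was lower in all 3, and in each G-MDSC replicate 1 was the lowest array. Cxcl10 and Cxcl11 were higher in neutrophils replicate 2 than in replicate 1, unlike most of the genes above. The G-MDSC replicate 1 signals of Cxcl9 and Cxcl11 lie in the dimmest 40% of that array.

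Between the groups, few interferon-stimulated genes passed the test. Cxcl10, Bst2, Lgals3bp and Ifi204 were lower in G-MDSC and Trim25 was higher (limma with an intensity trend, Benjamini-Hochberg over 13139 genes, adjusted p under 0.05). That is 4 of 43 lower (9.30%), against 8.05% of all genes, and 1 higher (2.33%), against 8.3% of all genes. In either direction 5 were called (11.6%), against 16.4%. At an unadjusted p under 0.05 there were 13 (30.2%), against 29.6%. These shares were near or below those of all genes. The arrays of the groups did not overlap in 13 of the 43 (30.2%), against 59.5% of all genes.

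The Cxcl10 difference was -4.04 ± 0.46 in log2 (limma SE, n = 2 per group), which is 16.4-fold, with limma adjusted p = 0.000247. Bst2 (tetherin), which ties budding virus to the cell surface, had 193 and 328 in the G-MDSC arrays and 1399 and 931 in the neutrophil arrays, a difference of -2.11 ± 0.38 (limma adjusted p = 0.00376). Lgals3bp, a secreted galectin-binding glycoprotein, had 164 and 428 against 985 and 1523, a difference of -2.13 ± 0.45 (limma adjusted p = 0.00795). For each of these genes the difference between the group means was larger than that between the arrays of either group. Within G-MDSC the Lgals3bp arrays differed by 1.30, and its nearest arrays of different groups (428 and 985) lay closer than that. Ifi204, a member of the family of DNA sensors that includes Ifi16, had 276 and 1172 in the G-MDSC arrays and 2539 and 1757 in the neutrophil arrays. Its difference was -1.85 ± 0.54 (limma adjusted p = 0.0371), and its G-MDSC arrays were 4.08-fold apart. Another Ifi204 probe set that it shares with other genes was not used. Trim25, the ubiquitin ligase that activates the RNA sensor RIG-I, had 6332 and 6227 in the G-MDSC arrays and 3150 and 1017 in the neutrophil arrays. It was higher in G-MDSC by 1.80 ± 0.45 (limma adjusted p = 0.0189), and its probe sets ranged from 0.35 to 2. The macrophage and monocyte markers were higher in neutrophils alongside the 4 lower genes, and their part was not tested.

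Just outside the threshold were the other CXCR3 chemokines. The Cxcl11 difference was -2.27 ± 0.71 (limma adjusted p = 0.0507) and the Cxcl9 difference -2.43 ± 0.79 (limma adjusted p = 0.0592). Of 16 alternatives, 8 called Cxcl11 and 6 called Cxcl9. Their G-MDSC replicate 1 signals are too dim to fix the size: with dim signals set to a floor the differences were -1.02 for Cxcl11 and -1.05 for Cxcl9, and with a pseudocount of 1 they were -2.81 and -3.27. Without G-MDSC replicate 1 they were -1.26 and -1.14 (limma adjusted p = 0.512 and 0.571). Isg20 was next on the lower side at -1.29 ± 0.43 (limma adjusted p = 0.0653). On the higher side Cmpk2 reached 0.87 ± 0.33 (limma adjusted p = 0.0998) and Psmb9 0.94 ± 0.37 (limma adjusted p = 0.11).

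The other well-known genes of the list did not pass the test. Limma adjusted p-values were 0.437 for Ifit1 (-0.78 ± 0.62), 0.77 for Ifit3 (-0.34 ± 0.69) and 0.238 for Rsad2 (-0.87 ± 0.46). They were 0.705 for Oasl2 (0.29 ± 0.46), 0.48 for Eif2ak2 (-0.57 ± 0.50) and 0.541 for Adar (0.45 ± 0.45). For the regulators they were 0.643 for Irf7 (-0.41 ± 0.54), 0.521 for Stat2 (-0.48 ± 0.46) and 0.553 for Usp18 (-0.48 ± 0.49). Gbp2 had -1.09 ± 0.46 (limma adjusted p = 0.142), Tap1 -0.36 ± 0.48 (limma adjusted p = 0.644) and Psmb8 -0.34 ± 0.34 (limma adjusted p = 0.537). The median standard deviation between the arrays of a group was 0.75 in G-MDSC and 0.61 in neutrophils for these 43 genes, against 0.22 and 0.41 for all genes. Probe sets of Stat2 (-0.48 to 0.32), Dhx58 (-0.50 to 0.57) and Samhd1 (-0.08 to 0.78) disagreed on the direction. A p that misses the threshold does not show that the groups are alike.

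**Figure D3:**
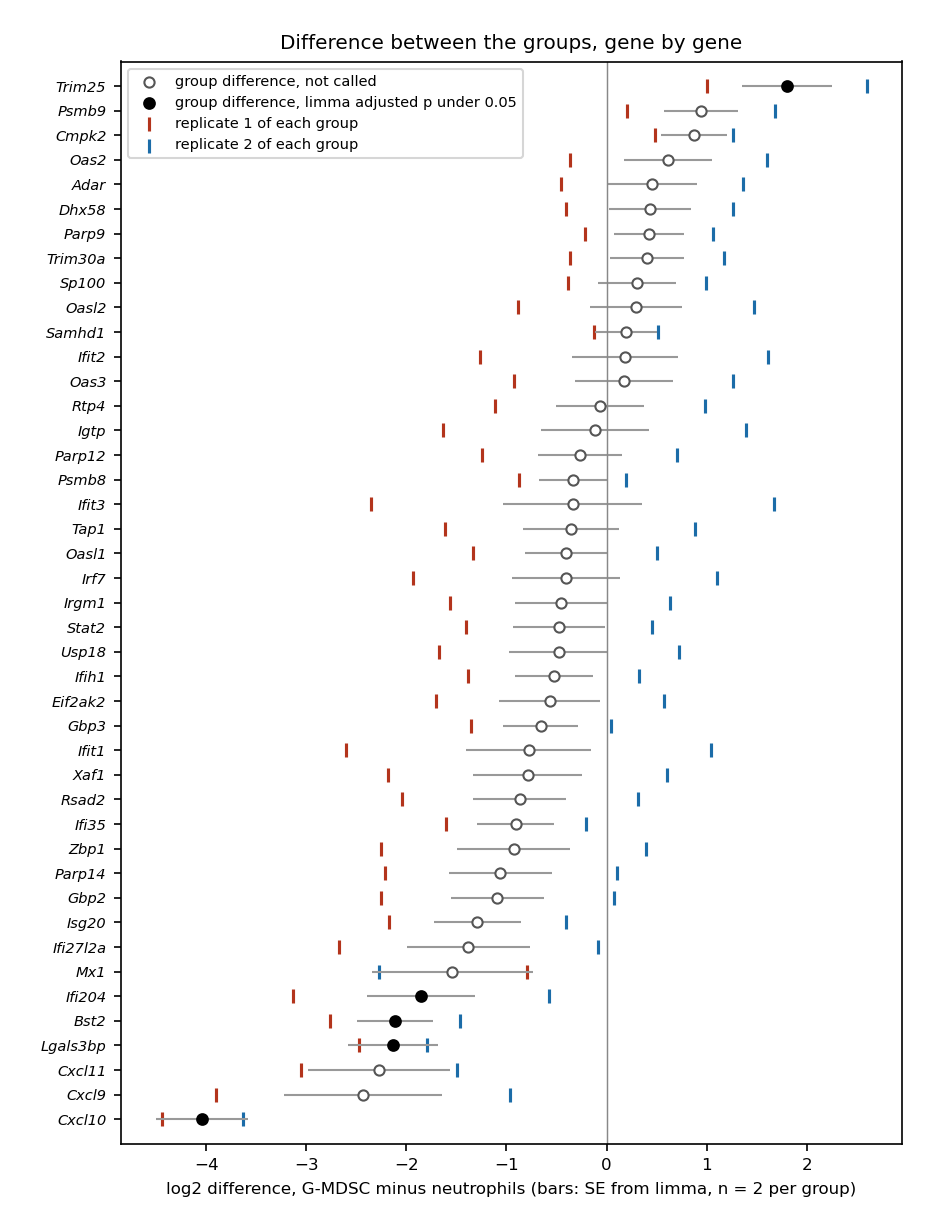
Circles give the log2 difference, G-MDSC minus neutrophils, of each interferon-stimulated gene with its limma standard error (n = 2 arrays per group), filled where the adjusted p is under 0.05. Red and blue ticks give the difference of the arrays numbered 1 and of those numbered 2, which lie on opposite sides of 0 in 30 of the 43 genes.

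The direction of the difference depended on which arrays were set side by side. No label says that equal numbers pair the samples, so the pairs below only describe the arrays. Between the arrays numbered 1, 40 of the 43 genes were lower in G-MDSC, with a median of -1.56 against 0 for all genes. Between the arrays numbered 2, 33 were higher in G-MDSC, with a median of 0.60 against -0.33 for all genes. The crosswise pairs gave -0.47 (G-MDSC 1 and neutrophils 2) and -0.26 (G-MDSC 2 and neutrophils 1). Over all 4 arrays the median was -0.46, against -0.18 for all genes. With arrays scaled to equal medians it became 0.09, while that of all genes moved by 0.56 to 0.38. G-MDSC replicate 1 was at least 2-fold below neutrophils replicate 1 in 29 genes (67.4%), against 13.5% of all genes. G-MDSC replicate 2 was at least 2-fold above neutrophils replicate 2 in 15 (34.9%), against 14.7% of all genes.

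In 30 genes the arrays numbered 1 and those numbered 2 gave differences of opposite sign, against 26.4% of all genes, and in all 30 the first was negative and the second positive. Among the effectors, in log2, Ifit1 went from -2.60 to 1.04, Ifit3 from -2.35 to 1.67, Ifit2 from -1.26 to 1.61, Rsad2 from -2.04 to 0.31 and Eif2ak2 from -1.70 to 0.57. Oasl1 went from -1.33 to 0.50, Oasl2 from -0.89 to 1.47, Oas2 from -0.37 to 1.60, Oas3 from -0.93 to 1.26 and Rtp4 from -1.11 to 0.98. The spans were shorter for Adar (-0.46 to 1.36), Trim30a (-0.37 to 1.17) and Samhd1 (-0.13 to 0.51). The widest of these spans was that of Ifit3. For comparison, the same pairs gave -4.44 and -3.63 for Cxcl10. Among the regulators, Irf7 went from -1.93 to 1.10, Xaf1 from -2.18 to 0.60, Zbp1 from -2.25 to 0.39, Usp18 from -1.67 to 0.72 and Parp14 from -2.21 to 0.10. Stat2 went from -1.40 to 0.45, Ifih1 from -1.38 to 0.32, Dhx58 from -0.41 to 1.26, Parp12 from -1.24 to 0.70, Parp9 from -0.22 to 1.06 and Sp100 from -0.39 to 0.99. Among the GTPases, Igtp went from -1.63 to 1.39, Irgm1 from -1.56 to 0.63, Gbp2 from -2.25 to 0.07 and Gbp3 from -1.35 to 0.04. In antigen processing, Tap1 went from -1.61 to 0.88 and Psmb8 from -0.88 to 0.19. Of the other 13 genes, 10 were lower in both pairs and 3 (Trim25, Psmb9 and Cmpk2) higher in both.

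Leaving out an array moved the calls and the median difference in each direction. A lone remaining array is then assumed to vary like the other group. Without neutrophils replicate 2, 26 of the 43 were called lower in G-MDSC, against 11.1% of all genes, and 1 higher. Without neutrophils replicate 1, 9 were lower and 12 higher, against 26.4% and 18.4% of all genes. Without G-MDSC replicate 2, 13 were lower and 1 higher, against 4.27% and 3.89%. Without G-MDSC replicate 1, 2 were lower and 1 higher, against 4.37% and 3.27%. The median difference was -0.95 without neutrophils replicate 2, 0.05 without neutrophils replicate 1, -1.01 without G-MDSC replicate 2 and 0.18 without G-MDSC replicate 1. Of the 5 called genes, those called in all 4 of these fits were Cxcl10 (-4.78 to -3.30), Bst2 (-2.47 to -1.75) and Trim25 (0.99 to 2.61). Without G-MDSC replicate 1, Ifi204 was at -0.84 (limma adjusted p = 0.453) and Lgals3bp at -1.48 (limma adjusted p = 0.0879), neither past the threshold. With all 4 arrays, quantile normalization gave 3 lower and 1 higher, against 6.77% and 6.85% of all genes. Scaling to equal medians gave 3 lower and 1 higher, against 3.45% and 8.19%. It kept the calls of Cxcl10 (-3.48) and Trim25 (2.36) but not those of Bst2 (-1.55, limma adjusted p = 0.0771), Lgals3bp (-1.58, 0.0799) and Ifi204 (-1.30, 0.284). It also called Cxcl9 (-1.87, limma adjusted p = 0.00604) and Cxcl11 (-1.71, 0.0126) lower. Without the intensity trend limma called 1 lower and 0 higher (8 at an unadjusted p under 0.05), against 2.52% and 1.13%.

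**Figure D4:**
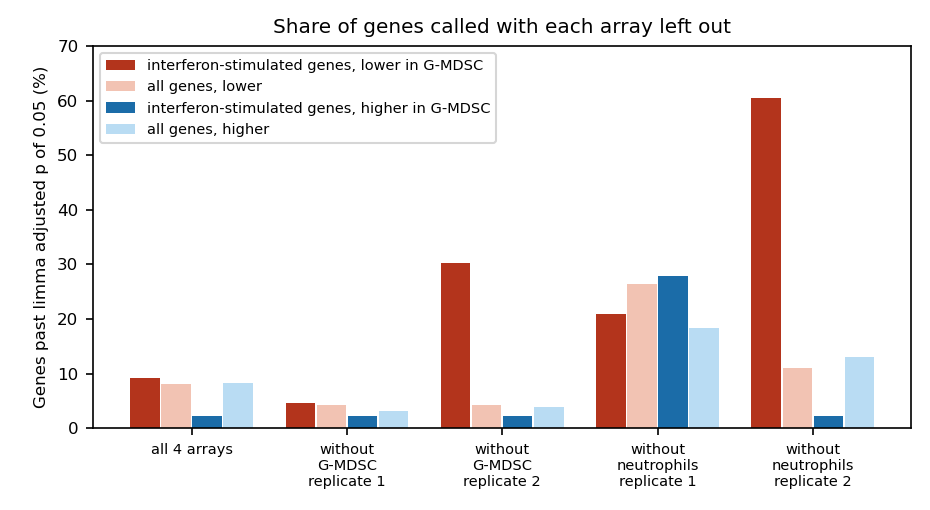
Bars give the percentage of genes past a limma adjusted p of 0.05, lower or higher in G-MDSC, with all 4 arrays and with each array left out, for the 43 interferon-stimulated genes (dark) and all 13139 genes (pale). The dark red bar stands for 26 of the 43 genes without neutrophils replicate 2 and for 2 of 43 without G-MDSC replicate 1.

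The interferon ligands had low signals. Of 9 listed, 4 were tested and 0 called (limma, Benjamini-Hochberg, with 0 at an unadjusted p under 0.05), against 16.4% of all genes. Ifnb1, the first type I interferon made on infection, had 22.2 and 87.3 in the G-MDSC arrays and 44.8 and 184 in the neutrophil arrays. Ifna1 had 149 and 150 against 168 and 315, Ifna2 5.2 and 76.8 against 10.5 and 242, and Ifnz 132 and 151 against 177 and 490. Each was highest in neutrophils replicate 2, the array with the raised low end, and none had the pattern of the stimulated genes. Their limma adjusted p-values were 0.223 to 0.678. Ifna1 and Ifnz were above the 40th percentile in all 4 arrays, and Ifnb1 and Ifna2 in 2 of 4. Ifng (13.9 and 20 against 53.1 and 117) and Ifna4 (5.54 and 5.45 against 9.54 and 41.3) were too dim to test.

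Of the 9 receptor and kinase genes, all tested, 1 was lower and 1 higher in G-MDSC, against 8.05% and 8.3% of all genes. Ifnar1, a chain of the type I receptor, had 733 and 779 in the G-MDSC arrays and 1551 and 1753 in the neutrophil arrays, a difference of -1.11 ± 0.31 (limma adjusted p = 0.0304). Ifngr1, the ligand-binding chain of the interferon gamma receptor, had 4327 and 7310 against 2119 and 2483, a difference of 1.29 ± 0.33 (limma adjusted p = 0.0229). The arrays of a group lay close together for Ifnar1, unlike for most of the stimulated genes. Both calls were lost with G-MDSC replicate 2 left out (-1.15 for Ifnar1 and 0.91 for Ifngr1, limma adjusted p = 0.214 and 0.361), and that of Ifnar1 also without G-MDSC replicate 1 (-1.07, limma adjusted p = 0.277). The Ifnar1 difference itself stayed close to its value with all arrays.

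Of 7 transcription factor genes 6 were tested, and 1 was called lower in G-MDSC, against 8.05% of all genes. The pattern of the stimulated genes was seen in 5 (83.3%), against 15.3% of all genes. Irf1, which drives interferon gamma targets, had 4957 and 9926 in the G-MDSC arrays and 6969 and 4364 in the neutrophil arrays, a difference of 0.35 ± 0.39 (limma adjusted p = 0.585). Irf9, the DNA-binding subunit of the ISRE complex, had 2448 and 3911 against 2867 and 1715, a difference of 0.48 ± 0.36 (limma adjusted p = 0.408). Irf5, which acts downstream of Toll-like receptors, was lower in G-MDSC (-2.26 ± 0.34, limma adjusted p = 0.00136), with 522 and 769 against 3698 and 2586.

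Of the 14 tested inducers of interferon 3 were lower and 1 higher, against 8.05% and 8.3% of all genes. The pattern was seen in 2 (14.3%), near the 15.3% of all genes. Ikbke, a kinase that activates Irf3 and Irf7, had 643 and 372 in the G-MDSC arrays and 13988 and 6095 in the neutrophil arrays, a difference of -4.19 ± 0.42 (limma adjusted p = 0.000103). Tlr4, the receptor for lipopolysaccharide, differed by -1.53 ± 0.36 (limma adjusted p = 0.0139). Traf6, a ubiquitin ligase below these receptors, differed by -1.10 ± 0.32 (limma adjusted p = 0.0361), and its 5 probe sets ranged from -1.29 to 0.80, so they disagreed on the direction. The Traf6 call was lost on leaving out G-MDSC replicate 1 or 2 (-1.14 and -1.06, limma adjusted p = 0.252 and 0.301). Tlr7, the endosomal receptor for single-stranded RNA, was higher in G-MDSC at 785 and 1081 against 297 and 346, a difference of 1.48 ± 0.34 (limma adjusted p = 0.0136). The Tlr7 call was lost on leaving out G-MDSC replicate 1 or 2 (1.70 and 1.25, limma adjusted p = 0.0703 and 0.267), and that of Tlr4 without replicate 1 (-1.37, limma adjusted p = 0.0743).

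Among the 11 brakes on interferon signalling, all tested, 2 were lower and 1 higher, against 8.05% and 8.3% of all genes. The pattern was seen in 5 (45.5%), against 15.3% of all genes. Tnfaip3 (A20), which trims ubiquitin from signalling proteins, had 3541 and 8050 in the G-MDSC arrays and 27565 and 37445 in the neutrophil arrays, a difference of -2.59 ± 0.40 (limma adjusted p = 0.0015). Socs3, which blocks Janus kinases, had 8017 and 10033 against 18179 and 23838, a difference of -1.21 ± 0.31 (limma adjusted p = 0.0221). The Socs3 call was lost without G-MDSC replicate 1 or 2 (-1.05 and -1.37, limma adjusted p = 0.263 and 0.0857). Nlrx1, a mitochondrial protein that restrains RNA sensing, had 4402 and 4090 against 1668 and 648, a difference of 2.01 ± 0.41 (limma adjusted p = 0.00713). Nlrx1 resembled Trim25 in that the G-MDSC arrays were close together and neutrophils replicate 2 was the lowest.

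A longer list of other interferon-induced genes behaved less uniformly. Of 63 listed, 52 were tested, of which 6 were lower in G-MDSC and 1 higher, against 8.05% and 8.3% of all genes. The pattern was seen in 28 (53.8%), against 15.3% of all genes. Gbp7 had 2552 and 5731 in the G-MDSC arrays and 7306 and 2602 in the neutrophil arrays, and Ifi47 1287 and 4542 against 9020 and 3439. Both belong to the GTPase families described above and swung the same way as Gbp2 and Igtp. The largest called differences lay elsewhere. Ccl5, a chemokine for T cells and monocytes, had 300 and 153 in the G-MDSC arrays and 4103 and 3981 in the neutrophil arrays, a difference of -4.13 ± 0.36 (limma adjusted p = 4.61e-05). Fcgr1, the high-affinity IgG receptor, had 123 and 234 against 1559 and 2509, a difference of -3.42 ± 0.40 (limma adjusted p = 0.000274). Ms4a4c, a tetraspanning membrane protein, had 482 and 491 against 4344 and 6539, a difference of -3.41 ± 0.32 (limma adjusted p = 6.91e-05). Fcgr1 is also on the macrophage marker list and Ms4a4c on the monocyte list, whose sums were higher in neutrophils, and their part was not tested. The gene that was higher, Plscr1, a phospholipid scramblase, had 7842 and 9289 in the G-MDSC arrays and 4838 and 2895 in the neutrophil arrays, a difference of 1.19 ± 0.33 (limma adjusted p = 0.032). Its 3 probe sets ranged from -0.74 to 1.19, so they disagreed on the direction. The Plscr1 call was lost without G-MDSC replicate 1 or 2 (1.31 and 1.06, limma adjusted p = 0.0951 and 0.231). Across the pathway genes named above, scaling the arrays to equal medians ended the calls of Ifnar1 (-0.55), Ifngr1 (1.85), Irf5 (-1.70), Tlr4 (-0.97), Traf6 (-0.54), Socs3 (-0.66) and Plscr1 (1.74), with limma adjusted p-values of 0.128 to 0.712.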

How the data were processed

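The authors deposited 1 intensity per probe set and array, a linear signal for which the submitters' processing notes name GCOS 1.4 and MAS5. With the top and bottom 2% of probe sets trimmed, each array has a mean of 500. Precision is limited by the number of arrays, 2 per group. Of 45101 probe sets, 64 controls were left out and 34945 had 1 symbol in the platform annotation.

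Signals were used as log2(signal + 16). Probe sets had to exceed their array's 40th percentile on 2 or more of the 4 arrays (28754 kept), and the brightest represented each gene. Differences, G-MDSC minus neutrophils, were fitted with lmFit and eBayes with an intensity trend (two-sided, Benjamini-Hochberg, threshold 0.05). R 4.3.3, limma 3.58.1, Python 3.11.15, pandas 2.3.3, numpy 2.4.6 and matplotlib 3.10.9 were used. The fit was tested on simulated data with independent noise in each gene and array. That test does not cover genes that swing together between replicates, as these did.

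The genes, roles, pathway lists and marker lists were chosen with earlier results of these data known. Named were the called genes, a fixed set of well-known genes, every gene whose replicate pairs differed in sign, the ligands, Irf9, Irf1 and up to 3 called genes per direction of each pathway list. Other genes were named for their role or after their values were seen. For a group with neither array above its 40th percentile, the fold is a bound, in which that percentile replaces any lower signal of the dim group. Marker lists for T cells (0 of 6 tested called), NK cells (0 of 5), B and plasma cells (1 of 8 lower, 2 higher), stroma (0 of 4) and neutrophils (3 of 10 higher) were also counted by limma. Alternatives were other pseudocounts (1 and 64), filters, scalings, variance models, probe set choices, a block for the replicate number, and 1 array left out at a time.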

Additional observations from a re-analysis of the deposited data

How the results depend on the processing

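With all 4 arrays, 4 of the 43 interferon-stimulated genes were called lower in G-MDSC and 1 higher. Other pseudocounts, filters, scalings and the median of probe sets gave 3 to 5 lower and 1 higher. Without the intensity trend 1 was lower and 0 higher (8 at an unadjusted p under 0.05). Without moderation, or with dim signals set to a floor, limma called 0 lower and 0 higher, as for all genes (2 and 6 at an unadjusted p under 0.05). Leaving out 1 array gave 2 to 26 lower and 1 to 12 higher. The replicate number as a block gave 14 lower and 3 higher, against 12.2% and 12.9% of all genes. With quantile normalization as well it gave 11 lower and 1 higher, against 10.7% and 13.1%. Same-numbered arrays deviated together only weakly (Pearson r = 0.24 across 13139 genes, which are not independent replicates), and no label ties the numbers, so the reported fit has no block and comparisons of same-numbered arrays are descriptions. Median scaling changed the all-gene calls from 1058 lower and 1091 higher to 453 and 1076. The pattern between replicate arrays held in 36 to 41 genes under 8 settings chosen after seeing the data. Of all genes, 12.8% to 32.1% had it under these settings. Median scaling gave both the 41 and the 32.1%. Over all 16 alternatives for single genes, Cxcl10 was called in 14 (adjusted p up to 0.26), Trim25 in 13 (up to 0.405), Bst2 in 12 (up to 0.27), Lgals3bp in 11 (up to 0.336) and Ifi204 in 9 (up to 0.467).

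Median scaling rescales whole arrays, which moved the median of all genes by 0.56, and some genes near 0 changed sign with it: Ifit3 (to 0.22), Oasl1 (0.14), Irf7 (0.14), Stat2 (0.08), Usp18 (0.08), Ifih1 (0.03), Igtp (0.44), Irgm1 (0.09), Parp12 (0.29), Rtp4 (0.49), Tap1 (0.19) and Psmb8 (0.21). The median of probe sets turned Dhx58 (-0.04), whose probe sets disagree on the direction. On leaving out each array, 25 of these genes changed sign: Adar -0.34 to 1.24, Dhx58 -0.08 to 0.93, Eif2ak2 -1.43 to 0.29, Ifih1 -1.06 to 0, Ifit1 -1.85 to 0.29, Ifit2 -0.61 to 0.97, Ifit3 -1.57 to 0.89, Igtp -0.95 to 0.70, Irf7 -1.22 to 0.39, Irgm1 -1.19 to 0.26, Oas2 -0.15 to 1.38, Oas3 -0.75 to 1.08, Oasl1 -0.90 to 0.07, Oasl2 -0.30 to 0.88, Parp12 -0.78 to 0.24, Psmb8 -0.75 to 0.06, Rtp4 -0.79 to 0.66, Samhd1 -0.05 to 0.43, Sp100 -0.31 to 0.91, Stat2 -1.01 to 0.05, Tap1 -1.06 to 0.34, Trim30a -0.03 to 0.83, Usp18 -1.26 to 0.31, Xaf1 -1.76 to 0.17 and Zbp1 -2.04 to 0.18. So did Ifna2 (-2.54 to 0.74), Ifnb1 (-1.67 to 0.05) and Irf1 (-0.15 to 0.85). Of 318 values of the 20 named pathway genes under all alternatives, 249 kept their side of the threshold and 61 lost a call.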
